A study of Mus musculus with 8 samples.

Results

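The comparison described here asks whether the strength of Rad21 binding followed the orientation of the engineered allele of the immunoglobulin heavy chain locus (Igh). It covers chromosomes 1 to 19, without chromosome 12 from 114.5 Mb on. Its members were the regions bound in every library. The peaks of all 8 deposited lists were merged wherever they overlapped by at least 1 bp, which gave 64772 regions, and 6691 of these (10.3%) were kept. They held a peak in each list and lay on chromosomes 1 to 19. Of the 6747 regions present in all 8 lists, 55 on chromosome X and 1 on the mitochondrial genome were left out. The rule also left out chromosome 12 from 114.5 Mb on (mm9), most of Igh and what lies beyond it, but 0 regions of all 8 lists started there. Because presence was required everywhere, the readout was strength and not presence.

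Rad21 ChIP-seq had been made from CH12F3 cells, mouse lymphoma B cells that can be made to switch to IgA in culture. All lines lacked AID (AID-/-), the enzyme whose deamination of switch regions initiates class switching, and all had been given TGF-β, IL4 and anti-CD40 for 3 days. The 4 Ca libraries came from lines made in cells with the stretch from VH to the 3'BCEs removed from the non-coding IgH allele. In FS_Ca the segment from Cγ3 to Iα was deleted with both switch regions (Sγ3 and Sα) kept whole, and in PS_Ca the segment from Sγ3 to Sα was deleted with parts of both kept. The Ia libraries came from αInv cells, with a Cγ3 to Cα deletion and whole switch regions in FS_Ia, and an Sγ3 to Sα deletion with partial ones in PS_Ia. Each of the 4 genotypes had 2 libraries. The labels do not say that these came from separate cultures or from more than 1 clone, so the p-values measure only the spread between these samples, which may be technical. The Ia against Ca contrast is called orientation here, and each Ia line also differs from its Ca line in the parental cells.

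Rad21 is the kleisin subunit of cohesin, the ring-shaped complex that extrudes chromatin loops and is halted at sites bound by CTCF. In B cells such loops bring the Igh switch regions and the 3' regulatory region together, and the CTCF-binding elements at the 3' end of the locus form one of its boundaries. The series is about chromatin configuration and the orientation in which the ends of switch region breaks are joined. The regions analysed here show whether the relative strength of shared cohesin sites elsewhere in the genome differed between the same lines. Values were centred on each library's own median, so a rise or fall common to all regions could not be seen. Sites that lacked a peak in any list were left out, so gained or lost sites were not tested. A ChIP signal averages over cells, so fewer cells with a bound site and less cohesin per bound site cannot be told apart.

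The value of a region in a library was its relative strength: the highest fold enrichment over background of that library's peaks in the region, divided by the library's median over the 6691 regions. Differences are on the log2 scale of this value, Ia minus Ca. The median fold lay between 7.56 (PS_Ca replicate 2) and 12.4 (PS_Ca replicate 1), and the median summit between 11 and 21 fragments. The regions were 2026 bp wide in the median, with quartiles of 1539 and 2724 bp, and 2574 of them (38.5%) had exactly 1 peak in each list. They were the stronger part of the lists: their folds had a median of 10.4, against 7.36 in the 3033 regions found in 7 of the 8 lists. Of those 3033 regions just outside the rule, 1730 were missing from PS_Ca replicate 2, the shortest list. FS_Ia replicate 2 stood apart. Its log2 values had an SD of 0.756 over the regions, against 0.517 to 0.584 in the other 7 libraries, and it alone held the highest of the 8 values in 24.8% of regions and the lowest in 21.9%.

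No single region passed the adjusted threshold for a difference in Rad21 strength between the orientations. Of 6691 regions, 0 passed in either direction at an adjusted p of 0.05 (percent called: 0), and the lowest adjusted p was 0.996 (limma, additive model with switch length, Benjamini-Hochberg adjustment). At an unadjusted p under 0.05 there were 289 regions, or 4.32% of those tested, of which 92 were higher and 197 lower in Ia. This number was 612 without PS_Ia replicate 1, 150 without FS_Ca replicate 1 and 182 without PS_Ia replicate 2, each with 0 passing. The differences had a median of -0.032 and quartiles of -0.20 and 0.14. In 94.5% of regions the difference was below 0.5 in size, and the largest were -1.04 and 1.00. The plot of difference against strength shows a cloud around 0 at all strengths.

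**Figure D1:**
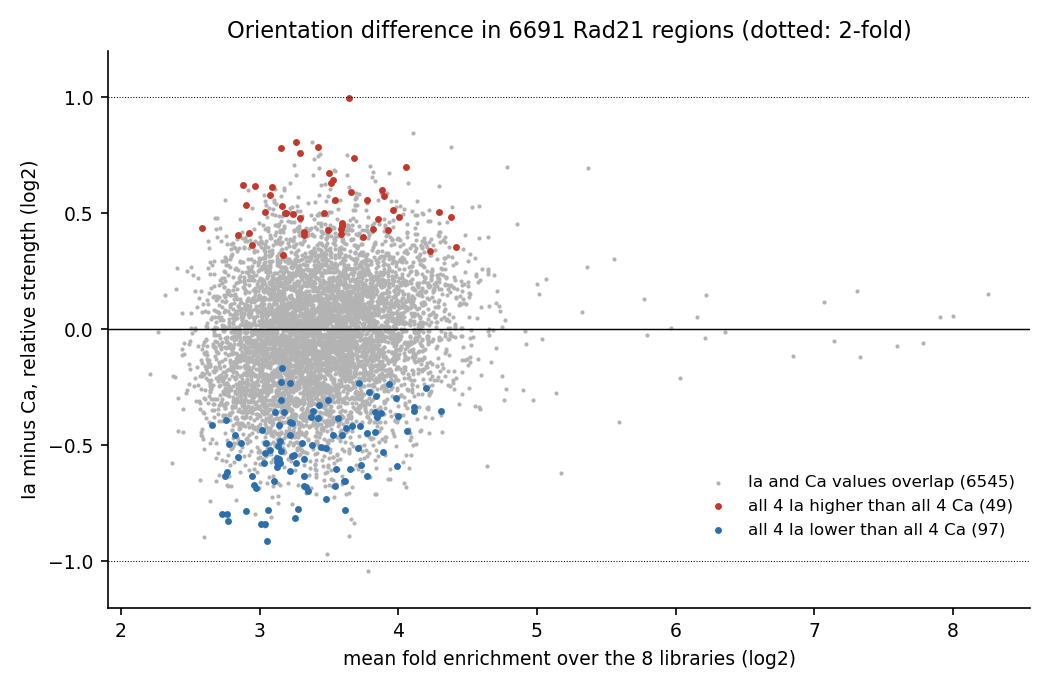
Ia minus Ca difference in relative strength (log2, vertical) against the mean fold enrichment over the 8 libraries (log2, horizontal), 1 point per region. The 49 regions with all 4 Ia values above all 4 Ca values (red) and the 97 with all 4 below (blue) lie within one cloud with a median of -0.032, and 0 regions passed the adjusted threshold.

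The libraries could bound the difference at most regions more tightly than a factor of 2. The 95% interval reached a median of 0.51 to either side of the estimate, a factor of 1.43, and lay wholly within a 2-fold change in both directions at 6223 regions (93.0%). It reached 0.47 at the narrowest and 0.83 at the widest. These are intervals of single regions, not adjusted over the 6691 regions tested. Like the p-values, they rest on the spread between these samples, which may be technical, and bound a difference between these samples only. The adjusted threshold asks for more than an interval clear of 0. Even the largest differences, -1.04 and 1.00, did not pass it with 4 libraries against 4. The same regions gave 0 calls for switch length (373 regions, 5.57%, at an unadjusted p under 0.05).

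Counting error was as large as the spread between libraries. Summit heights in fragments were recovered from the folds, and the Poisson SD they imply on the log2 scale had a median of 0.361, against a median residual SD of 0.340 between libraries. In the 670 weakest regions, with a median summit of 9 fragments, the residual SD was 0.347 and the counting SD 0.435. Membership needed a peak in every list, so values under the lowest summits of the lists (3 to 5 fragments) could not enter. How far this narrowed the residual SD of weak regions was not tested. In the 669 strongest, with 28 fragments, the residual SD was 0.314 and the counting SD 0.278. Across this range the SD over regions of the orientation difference stayed between 0.236 and 0.271, with 0 calls in each of 10 groups by strength.

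**Figure D2:**
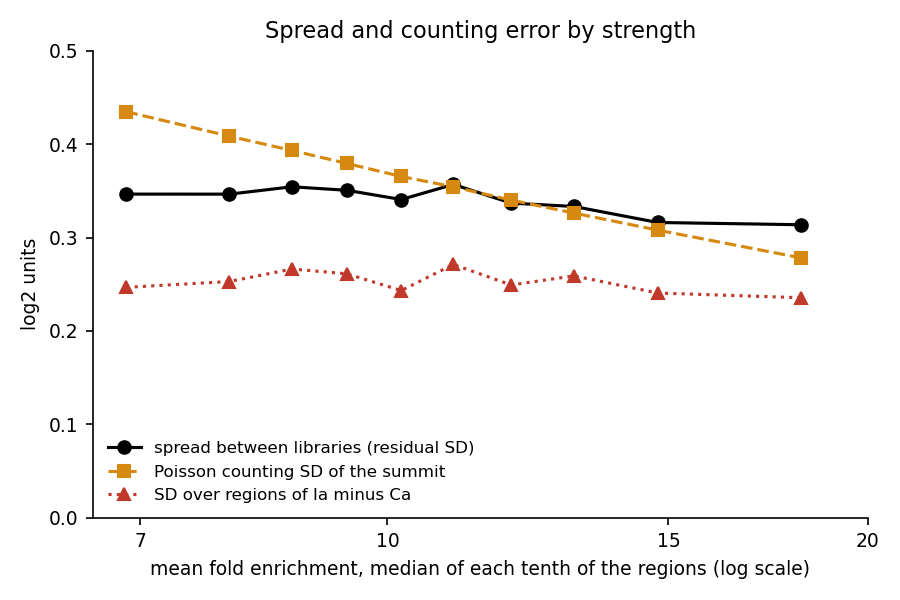
Median residual SD between libraries (black), median Poisson counting SD of the summit (orange) and SD over regions of the Ia minus Ca difference (red), all in log2 units, for 10 groups of 669 or 670 regions ordered by mean fold enrichment (log axis). The counting SD fell from 0.435 to 0.278 with strength and the residual SD from 0.347 to 0.314.

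Some regions had no overlap between the orientations, and their balance depended on the scaling. Values closer than 0.0002 on the log2 scale were taken as equal, since the deposited folds are rounded. All 4 Ia values lay above all 4 Ca values in 49 regions (percent called: 0.732) and below them in 97 (percent called: 1.45), 146 in all (percent called: 2.18). If the orientations did not differ, full separation in either direction would have a probability of 0.0286 per region. The observed 2.18% did not exceed this, so a lack of overlap alone does not set a region apart. With quantile normalization of the libraries the counts were 79 and 85, so that the higher ones made up 48.2% instead of 33.6%. With each library's chromosome medians taken out they were 71 and 72, with ranks in place of values 90 and 95, and in regions rebuilt from summits 64 and 65. Without chromosome 16 they were 52 and 84, or 38.2% higher.

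The 5 regions with the smallest p among those higher in Ia did not pass. Their relative strengths were without overlap, but the same values chose them, so this is no separate support. The first was at chromosome 16, 36709367 to 36712309 (mm9, as are all positions). Its relative strength was 0.615, 0.789, 0.773 and 0.917 in FS_Ca replicates 1 and 2 and PS_Ca replicates 1 and 2, and 1.5, 1.21, 2.65 and 1.14 in the Ia libraries in the same order. Every Ia library was above its library median there and every Ca library below it, with PS_Ia replicate 1 the highest. The difference was 1.00 ± 0.26 (SE, n = 4 and 4; 95% interval 0.46 to 1.53; limma adjusted p = 0.996), a factor of 2.00, and 0.75 without PS_Ia replicate 1.

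The next region, at chromosome 12, 57625972 to 57627574, had the tightest groups of the 5. It stood at 0.615, 0.737, 0.636 and 0.667 of the library median in the Ca libraries and at 1.17, 1.14, 1.29 and 1.05 in the Ia libraries. Its difference was 0.81 (95% interval 0.33 to 1.28, limma adjusted p = 0.996). This difference was 0.78 within FS and 0.84 within PS, in the same libraries by which the region was chosen. With 1 peak in each list and summits of 7 to 22 fragments, it was a site of moderate height. In the Ca libraries the summits were 7, 13, 13 and 7 fragments, where the lowest summit in those lists was 4 or 5. The site lies far from Igh on the same chromosome.

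The other 3 regions higher in Ia gave differences of 0.79 at chromosome 16, 30599268 to 30604059, 0.78 at chromosome 4, 19426444 to 19427398, and 0.74 at chromosome 15, 58775796 to 58778424. The Ca libraries ranged from 0.591 to 0.895, from 0.474 to 0.818 and from 0.750 to 1.08 of their medians at these sites, and the Ia libraries from 1.12 to 1.55, from 0.882 to 1.27 and from 1.18 to 1.93. The lowest Ia library was thus only slightly above the highest Ca library at the last 2. Another region on chromosome 16, at 92543785 to 92545610, was among the 5 largest differences without overlap (0.76; adjusted p = 0.996). Of the 49 regions without overlap that were higher in Ia, 5 were on chromosome 16, which held 259 of the 6691 regions. The regions of chromosome 16 had a median difference of 0.17, where all regions had -0.032.

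Among the regions lower in Ia, the smallest p belonged to chromosome 1, 133156334 to 133158183. Its relative strength was 1.23, 1.05, 0.955 and 0.917 in FS_Ca replicates 1 and 2 and PS_Ca replicates 1 and 2, and 0.50, 0.50, 0.471 and 0.773 in the Ia libraries in that order. The Ia libraries other than PS_Ia replicate 2 were near 0.5 and the groups did not overlap. The difference was -0.91 ± 0.25 (SE, n = 4 and 4; 95% interval -1.41 to -0.41; limma adjusted p = 0.996), so that the Ca libraries were higher by a factor of 1.88. Summits there were 5 to 20 fragments high.

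The largest difference in size was at chromosome 15, 28110841 to 28112650, where Ia minus Ca was -1.04 (95% interval -1.63 to -0.45; limma adjusted p = 0.996). The Ca libraries stood at 2.08, 1.00, 1.68 and 2.75 and the Ia libraries at 1.00, 1.21, 0.647 and 0.682. The groups overlapped, since FS_Ca replicate 2 was level with FS_Ia replicate 1 and below FS_Ia replicate 2. Within PS the difference was -1.70 and within FS -0.39, and this region also had the smallest p within PS (limma adjusted p = 0.377). A second region of chromosome 15, at 88365477 to 88369261, gave -0.89, with -1.28 within PS and -0.50 within FS.

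The region at chromosome 13, 3372081 to 3372968, gave -0.97, and its groups overlapped (Ca from 1.00 to 2.33, Ia from 0.357 to 1.12). At chromosome 8, 110405336 to 110407387, the groups did not overlap: the Ca libraries ranged from 0.864 to 1.23 and the Ia libraries from 0.429 to 0.667, a difference of -0.84. The differences without overlap at chromosome 11, 80612823 to 80614478 (-0.84), and chromosome 2, 102293137 to 102294406 (-0.83), were as large. At chromosome 9, 123546797 to 123548945, the Ca libraries ranged from 1.00 to 1.42 and the Ia libraries from 0.571 to 0.909, a difference of -0.81. Adjusted p was 0.996 for all of these in the same limma fit.

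**Figure D3:**
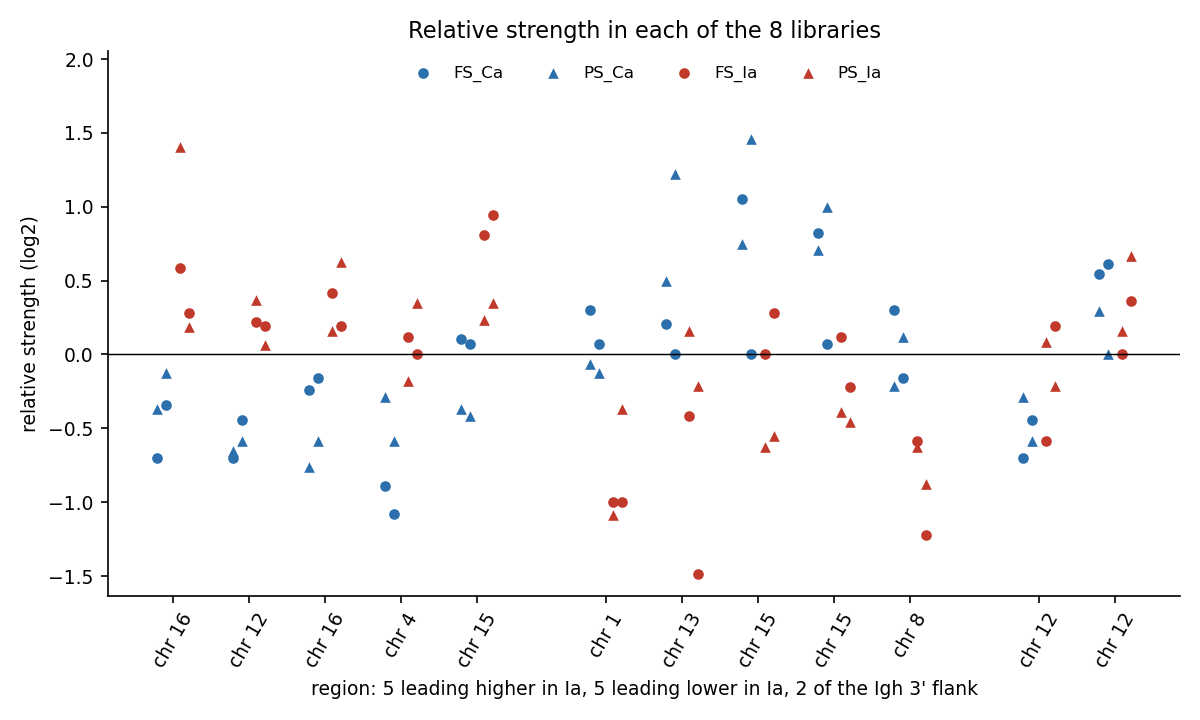
Relative strength (log2, 0 is the library's median region) in each of the 8 libraries at 12 regions, named on the axis by chromosome in the order of the text: the 5 with the smallest p higher in Ia (chromosomes 16, 12, 16, 4, 15), the 5 lower in Ia (1, 13, 15, 15, 8) and the 2 of the Igh 3' flank. Ca libraries are blue, Ia libraries red, FS circles and PS triangles; the colours separate in the first 5 regions and on chromosomes 1 and 8, and overlap in the flank.

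The 3' flank of Igh, downstream of Cα, was the only part of the edited locus in the comparison, with 2 regions. In the Ca lines the stretch from VH to the 3'BCEs was removed from the non-coding allele. Whether that stretch takes in these 2 regions, which would leave fewer copies in the Ca lines, was not tested. At chromosome 12, 114453661 to 114456961, the relative strength was 0.615, 0.737, 0.818 and 0.667 in FS_Ca replicates 1 and 2 and PS_Ca replicates 1 and 2. In the Ia libraries it was 0.667, 1.14, 1.06 and 0.864. The Ia libraries other than FS_Ia replicate 1 lay above all 4 Ca libraries, and the difference of 0.37 (95% interval -0.13 to 0.88; limma adjusted p = 0.996) was nearly the same in the FS set (0.37) and in both PS pairs (0.37 each).

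The neighbouring region at 114457842 to 114462624 was the stronger. It stood at 1.46, 1.53, 1.23 and 1.00 of the median in the Ca libraries and at 1.00, 1.29, 1.12 and 1.59 in the Ia libraries. The groups overlapped throughout, and the difference was -0.065 (95% interval -0.57 to 0.44; limma adjusted p = 0.996). Within 1 Mb of the limit on chromosome 12 there were 9 regions, with a median difference of 0.065 and 0 called. The 36 regions at 1 to 10 Mb had a median of 0.030, and the 214 farther away 0.066.

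The differences found with whole switch regions had a correlation near 0 over regions with those found with partial ones. Within FS 0 regions passed (percent called: 0; lowest adjusted p = 0.653 in limma; 5 passed without FS_Ia replicate 1), with 462 (6.9%) at an unadjusted p under 0.05. That number was 239 without FS_Ia replicate 2 and 1047 without FS_Ia replicate 1. Within PS 0 passed (percent called: 0; lowest adjusted p = 0.377), with 199 (2.97%), or 60 without PS_Ca replicate 2. Across regions the FS and PS differences had Pearson's r of -0.041, and 47.9% of the 6691 regions had the same sign in both. Against the replicate 1 pair of PS the r of the FS differences was -0.22 and against the replicate 2 pair 0.14, of opposite sign. These r are across regions that share the 8 libraries and are a description only. The 100 regions highest in FS_Ia over FS_Ca, with a median of 0.93, had a median of -0.12 within PS, where all regions had -0.048. The 100 regions lowest in FS had 0.042 within PS, the 100 highest in PS had 0.0036 within FS, and the 100 lowest in PS had 0.0018. Without FS_Ia replicate 2, with the FS lists chosen anew, these 4 medians were -0.053, 0.0078, -0.079 and 0.046, and r was -0.042. By the 3 sets of libraries that the prefixes of the peak names define (the 4 FS libraries, and the replicate 1 and the replicate 2 libraries of PS), the difference was positive in all 3 at 642 regions and negative in all 3 at 897.

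**Figure D4:**
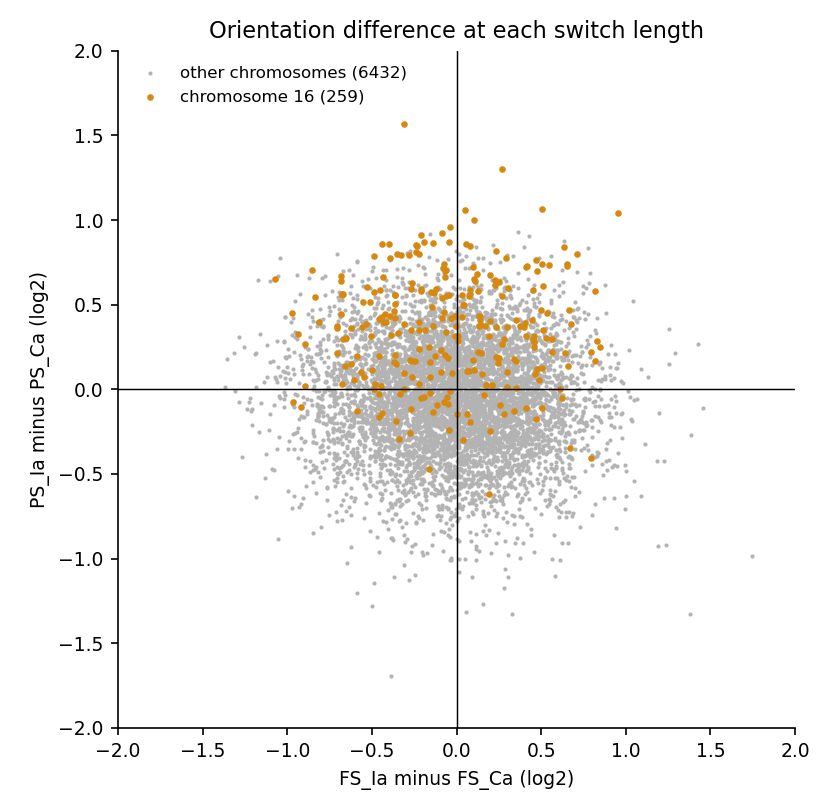
Orientation difference within PS (vertical) against that within FS (horizontal), both log2 of relative strength, 1 point per region. The 6432 regions of other chromosomes (grey) form a cloud around 0. Over all regions the SD was 0.406 within FS and 0.330 within PS. The 259 regions of chromosome 16 (orange) lie mostly above 0 on the vertical axis, with a median of 0.37 within PS and -0.063 within FS.

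The test of the difference between switch lengths, the interaction, also gave 0 calls (percent called: 0; lowest adjusted p = 0.354 in limma), with 347 (5.19%) at an unadjusted p under 0.05. That number was 244 without FS_Ia replicate 2, 142 without PS_Ca replicate 2 and 748 without FS_Ia replicate 1. The 3 smallest p belonged to regions that were higher in FS_Ia than FS_Ca and lower in PS_Ia than PS_Ca. At chromosome 17, 13498742 to 13499349, the relative strength was 1.08 and 0.53 in FS_Ca, 1.75 and 3.64 in FS_Ia, 1.64 and 3.00 in PS_Ca, and 0.765 and 1.64 in PS_Ia. Its interaction was -2.73 (limma adjusted p = 0.354), from a difference of 1.75 within FS and -0.99 within PS. FS_Ia replicate 2 was the highest of the 8 libraries there and PS_Ia replicate 1 was the lowest but 1.

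Chromosome 13, 74666006 to 74668408, stood highest in FS_Ia replicate 2 at 4.00 and lowest in PS_Ia replicate 1 at 0.529, with an interaction of -2.70 (adjusted p = 0.411). At chromosome 17, 13743442 to 13746107, these libraries stood at 9.79 and 2.53, again the highest and the lowest, and the interaction was -2.11 (adjusted p = 0.765). These 2 libraries also had the lowest correlation of any 2 over the 6691 regions (r = 0.320), where libraries of the same genotype had a mean of 0.599, libraries sharing orientation alone 0.594 and libraries sharing neither orientation nor switch length 0.600. The interaction passed at 2 regions without FS_Ia replicate 1 and at 2 without PS_Ia replicate 2, and at 0 without any other single library. It also passed at 1 region, the first of these 3, in the regions with 1 peak in each list (adjusted p = 0.0484). Without FS_Ia replicate 2 the interactions of the 3 regions were -2.20, -2.31 and -1.84 (adjusted p = 0.999 each), and without PS_Ia replicate 1 they were -2.18, -1.76 and -1.78.

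Single regions did not pass, but the regions of chromosome 16 moved together, and only at one switch length. Averaged over its 259 regions, the log2 relative strength was 0.28 and 0.31 in the FS_Ca libraries, 0.24 and 0.25 in the FS_Ia libraries, 0.27 and 0.24 in the PS_Ia libraries, and -0.11 and -0.075 in the PS_Ca libraries. Both PS_Ca libraries were thus low, and the other 6 were alike. The difference was 0.35 within PS (95% interval 0.26 to 0.45; a factor of 1.28; limma over the 19 chromosome means, adjusted p = 5.40e-09) and -0.046 within FS (-0.14 to 0.051; adjusted p = 0.663). The interaction was 0.40 (0.26 to 0.54; adjusted p = 2.73e-06). The PS value was 0.39 in the replicate 1 pair and 0.32 in the replicate 2 pair, and 0.33 to 0.37 when each library was left out in turn.

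Chromosome 16 was the 1 of 19 chromosomes that passed within PS (percent called: 5.26) and in the interaction (percent called: 5.26), against 0 for orientation over both switch lengths (percent called: 0), where its own difference was 0.15 (95% interval 0.015 to 0.29; adjusted p = 0.168). This fit takes the chromosomes as independent features with a common spread. Within PS and in the interaction that spread was pooled over the 19 chromosomes, with 76 degrees of freedom. The p-values and intervals there do not measure the spread of chromosome 16 itself. Exact permutation of 4 against 4 libraries cannot go below 0.0286 before adjustment over the 19 chromosomes, and within PS 2 libraries against 2 cannot reach 0.05, so the within-PS value has no exact test. Without PS_Ia replicate 1 the fit called 12 chromosomes within PS, 7 for orientation and 2 in the interaction, and without PS_Ia replicate 2 it called 2 within PS and 2 in the interaction. Within PS, 220 of the 259 regions (84.9%) were higher in Ia, against 42.6% elsewhere. Both PS_Ia libraries exceeded both PS_Ca libraries at 122 of them (47.1%), where the share over all regions was 11.6% (percent called: 11.6). Both FS_Ia libraries exceeded both FS_Ca libraries at 53 of them (20.5%), against 15.9% over all regions (percent called: 15.9). The 2 PS_Ca libraries were the lowest of all 8 at 61 of them (23.6%), against 1.65% elsewhere. In all 7 windows of 10 Mb on this chromosome the PS difference was positive, from 0.19 to 0.48. Of the 100 regions highest within PS, 44 were on chromosome 16. Switch length cannot be told apart from the prefix sets, so an interaction with one cannot be told apart from an interaction with the other.

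**Figure D5:**
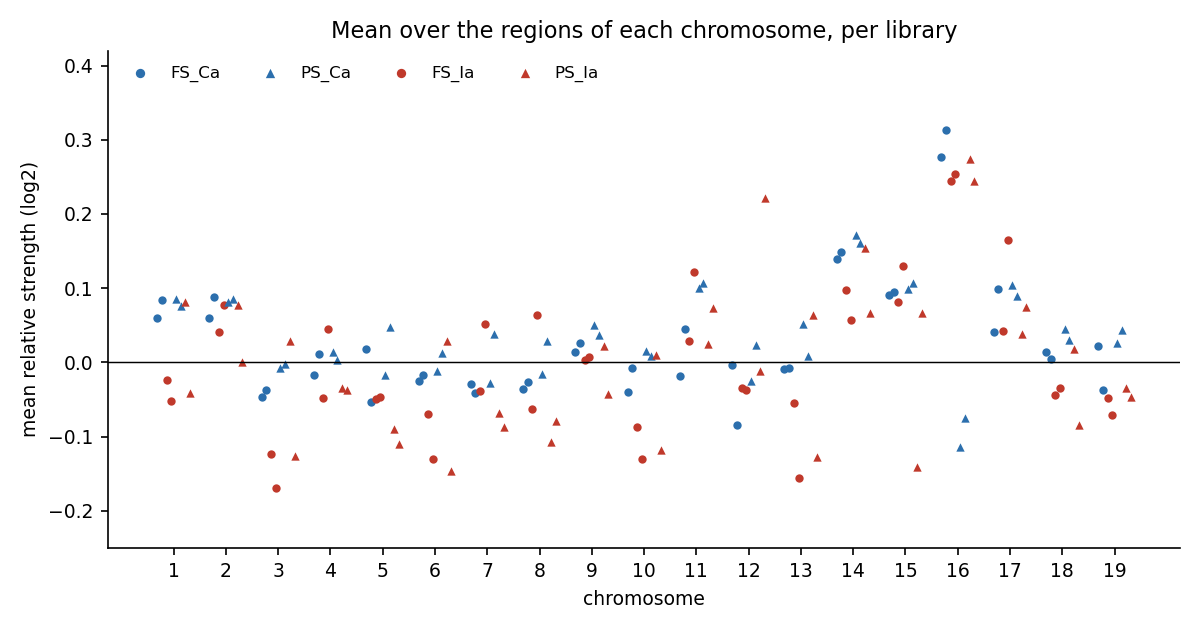
Mean over a chromosome's regions of the log2 relative strength, for chromosomes 1 to 19, with 1 point per library (Ca blue, Ia red, FS circles, PS triangles). On chromosome 16 the 2 PS_Ca libraries lie at -0.11 and -0.075 and the other 6 at 0.24 to 0.31; on chromosome 12 PS_Ia replicate 2 lies at 0.22, above the other 7.

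The other 18 chromosomes gave orientation differences between -0.086 (chromosome 1) and 0.057 (chromosome 12), with 0 called. Only chromosomes 11 (0.0037) and 12 among them were above 0. The unadjusted p in limma was 0.024 on chromosome 1, 0.045 on chromosome 5, 0.044 on chromosome 10 and 0.046 on chromosome 19, each lower in Ia. The median difference over all regions was also below 0, at -0.032. On chromosome 12 the mean was 0.22 in PS_Ia replicate 2 and between -0.085 and 0.024 in the other 7 libraries, so that 1 library lay apart. On chromosome 15 PS_Ia replicate 1 stood at -0.14 and the other 7 between 0.067 and 0.13, and the PS difference of -0.14 did not pass (adjusted p = 0.0630). Of 204 windows of 10 Mb with at least 10 regions, 0 passed for orientation (percent called: 0, lowest adjusted p = 0.476 in limma), with 19 at an unadjusted p under 0.05. All 4 Ia libraries lay below all 4 Ca libraries in 5 of the 204 windows and above them in 0. The lowest window, described because of its value, was on chromosome 5, where 15 of 15 regions between 14905336 and 17594884 were lower in Ia. Its mean difference was -0.43 (limma adjusted p = 0.476). PS_Ca replicate 2 had the highest value of the 8 libraries in 11 of the 15, with a mean of 0.51 against -0.46 to -0.069 in the other Ca libraries, and the difference was -0.25 without it.

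Loci known for CTCF-dependent architecture or for B cell identity were read from approximate mm9 windows, since no gene annotation of that build was used. Of 19 windows, 17 held regions, 87 in all. Of these 0 were called, 1 had an unadjusted p under 0.05 (against 4.32% of all regions), and 0 were without overlap. Their median difference was 0.0072, where all regions had -0.032.

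The antigen receptor windows showed both directions. The 6 regions of the Igk window ranged from -0.24 to 0.33 and the 6 of Tcra/Tcrd, a locus rearranged in T cells, from -0.30 to 0.19. The Igl window lies on chromosome 16 and held the 1 region with a small p, at 19145765 to 19148403, chosen after its values were seen. Its relative strength was 1.23 and 1.79 in FS_Ca, 1.25 and 1.14 in FS_Ia, 1.18 and 0.667 in PS_Ca, and 2.82 and 2.45 in PS_Ia, the highest of the 8. The difference was 1.57 within PS and -0.31 within FS, and 0.63 over both (limma adjusted p = 0.996). The other 2 Igl regions gave 0.31 and -0.075 over both switch lengths and 0.84 and 0.70 within PS. All 259 regions of chromosome 16 had a median of 0.17 over both switch lengths and 0.37 within PS.

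The window of the major histocompatibility complex, which encodes antigen-presenting molecules, held the most regions. Its 30 regions had a median of 0.072 and ranged from -0.32 to 0.43, and 18 were higher in Ia. The region with the smallest p there, at chromosome 17, 35302911 to 35306462, stood at 0.538 to 1.09 in the Ca and 0.917 to 1.32 in the Ia libraries (difference 0.43, limma adjusted p = 0.996). In the window of Myc, the proliferation regulator joined to Igh in many B cell tumours, and Pvt1, 7 regions ranged from -0.47 to 0.14. The lowest of them, at chromosome 15, 62631935 to 62636051, stood at 1.33 to 1.74 in Ca and 0.917 to 1.47 in Ia, with -0.81 within FS and -0.13 within PS (limma adjusted p = 0.996). The imprinted H19-Igf2 domain, whose control region binds CTCF on the maternal allele, held 5 regions between -0.029 and 0.45. The highest was at chromosome 7, 149765739 to 149768844, with 0.917 to 1.68 in Ca and 1.42 to 1.82 in Ia (limma adjusted p = 0.996).

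Windows of B cell transcription factors were small. The 2 regions of the window of Bcl6, a germinal centre repressor on chromosome 16, gave 0.36 and 0.39, where all regions of that chromosome had a median of 0.17. The 4 regions of Ebf1, needed for B lineage commitment, ranged from -0.18 to 0.42 and the 4 of Ikzf1, which encodes Ikaros, from -0.14 to 0.40. Pax5 had 2 regions, at 0.0023 and 0.38, and Irf4, a regulator of switching and plasma cells, had 1 at -0.39. The Hoxb window, a cluster of developmental genes, had 5 regions from -0.36 to 0.13. The groups overlapped at each of the 87 regions.

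By strength of the region the medians differed little, and their order changed with the scaling. The median difference was -0.078 in the 2230 weakest regions, -0.038 in the next 2230 and 0.021 in the 2231 strongest. Without FS_Ia replicate 2 these medians were -0.049, -0.046 and -0.033. With quantile normalization they were 0.015, -0.0043 and -0.011, in the opposite order. The spread of values per library was 0.609 ± 0.099 in Ia and 0.540 ± 0.0153 in Ca (SD over 4 libraries each), a difference of 0.070 that did not pass (exact two-sided permutation p = 0.114, where 0.0286 is the smallest possible). It was 0.021 without FS_Ia replicate 2. By width, the median difference was -0.066 in the 2230 narrowest regions and -0.00060 in the 2231 widest, and -0.0024 and 0.00023 with quantile normalization. The 1070 regions with another region within 10 kb had 0.0077 and the 5621 without one -0.039, and 0.029 and -0.0071 with quantile normalization. Each of these classes had 0 calls.

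The 5 tallest regions gave small differences with wide intervals. The first, at chromosome 2, 98506279 to 98507612, had folds of 305, 289, 273 and 237 in the Ca libraries and of 394, 354, 325 and 262 in the Ia libraries, and relative strengths that overlapped (22.0 to 32.7 and 22.1 to 42.4). Its difference was 0.15 (95% interval -0.35 to 0.65; limma adjusted p = 0.996). Those at chromosome 9, 2999890 to 3008888, 3009126 to 3038420 and 35112702 to 35113296, and at chromosome 2, 98502272 to 98503261, gave 0.059, 0.052, -0.059 and -0.070. Sites such as these, with repeats near centromeres or elsewhere, are known to collect reads in many ChIP-seq assays. The sign of the last 4 turned with the library left out, and 2 of them also with the scaling.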

How the data were processed

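Rad21 ChIP-seq peak lists of 8 libraries were used, 4 Ia and 4 Ca. MACS2 2.2.7.1, Bowtie2 2.4.4 and the mm9 build are named, per the submitters' processing notes, with no settings. The peak threshold and read filters are not stated in these sources. Each list was deposited per library. Its deposited columns hold a score, the summit's enrichment as a fold ratio over background, and the −log10 p and −log10 q values of the authors' peak caller. These folds are used across lists only after centring on each library's median.

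The deposited folds rose in equal steps, (height + 1) over (background + 1), and heights came out whole within 0.01. The background was 0.223 to 0.862 fragments and moves with depth, and lists held 11288 to 47461 peaks. Counting error covers fragments only, and PCR copies are not independent.

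Centred log2 folds were tested with limma 3.58.1 (R 4.3.3), Benjamini-Hochberg adjusted over all regions. The additive model held orientation and switch length. A model of 4 genotype means gave the values within FS, within PS and their interaction. The same models were run over chromosome means and 10 Mb windows, chosen after seeing the data. Tables and figures used pandas 2.3.3, scipy 1.17.1 and matplotlib 3.10.9 under Python 3.11.15. The recovery of heights, the merging and choice of regions and the additive orientation fit were tested on simulated data. The other steps were not.

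Named regions were the 5 smallest p per direction, up to 5 largest differences per direction without overlap, the 5 tallest, those of the Igh 3' flank, the smallest p in the 5 fullest landmark windows and the 3 smallest interaction p. The members, windows and rules were chosen with earlier results of these data known. Regions of the Igl, Bcl6 and H19-Igf2 windows beyond this rule were chosen after their values were seen. Genes were not assigned and sequences are not shown, since the reference tables used here are of another build.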

Additional observations from a re-analysis of the deposited data

Results flagged for a closer look

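Over 98 groups of 4 libraries (the named regions and the chromosome means), 4 had 1 library far from the other 3, and chance flags about 1 in 20 such groups. At chromosome 1, 133156334 to 133158183, PS_Ia replicate 2 stood at -0.37 (log2 relative strength) and the other Ia libraries at -1.09 to -1.0. In the mean of chromosome 4, FS_Ia replicate 2 stood at 0.045 and the other Ia libraries at -0.048 to -0.035. In the mean of chromosome 7, PS_Ca replicate 2 stood at 0.038 and the other Ca libraries at -0.042 to -0.028. In the mean of chromosome 12, PS_Ia replicate 2 stood at 0.22 and the other Ia libraries at -0.037 to -0.012. The orientation difference of chromosome 16 itself differed between switch lengths, by 0.40 (PS minus FS; limma over chromosome means with their spread pooled, adjusted p = 2.73e-06).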

How the results depend on the processing

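The count of 0 regions for orientation held under each alternative run: quantile normalization, recovered heights, ranks, 1 peak per list, a −log10 q of at least 5, summits ± 100 bp, no covariate, the prefix sets as a block, a trend with robust estimation, chromosome 16 left out, chromosome medians taken out (added after seeing the data) and each library left out. Regions without overlap numbered 79 (quantile normalization), 90 (ranks), 26 (1 peak per list) and 31 (−log10 q) for higher in Ia, and 24 and 55 (the last 2) for lower. With 1 library left out they rose to 87 to 200 higher and 151 to 360 lower, since fewer values must be apart.

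Libraries of different genotypes with the same number had deviations correlated at r = -0.22 to 0.40, not all above 0.1, so the numbers were not taken as pairs. Within PS, though, libraries with the same number also share a prefix set. With the replicate block orientation kept 0 calls (350 at an unadjusted p under 0.05), the interaction had 2 (the leading regions of chromosomes 17 and 13, both at an adjusted p of 0.00899), chromosome means within PS 2 and windows within PS 4. The interaction had 1 call with 1 peak per list and 0 to 2 with a library left out. Windows within PS had 5 with quantile normalization and 0 to 3 with a library left out. FS calls were 0 to 5 (5 without FS_Ia replicate 1). Chromosome means gave 0 to 7 calls for orientation, 1 to 12 within PS and 1 to 2 for the interaction, the highest without PS_Ia replicate 1. Exact permutation of chromosome medians gave 0 of 19, a test with almost no reach, since its smallest p is 0.0286 before adjustment. A genotype left with 1 library was taken to vary like the others. The spread difference was 0.021 to 0.091. The causes were not tested beyond these values.

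Of 530 values of 29 named regions under alternatives, 503 kept direction and side of the threshold and 21 reversed, in 5 regions. The chromosome 9 regions ranged over -0.14 to 0.21 at 2999890, -0.14 to 0.21 at 3009126 and -0.22 to 0.16 at 35112702, chromosome 2, 98502272, over -0.25 to 0.16, and the flank region at 114457842 over -0.23 to 0.074. With quantile normalization the region at 3009126 gave -0.033 and that at 98502272 gave 0.031, and with ranks -0.023 and 0.015.

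Summits of a few fragments limit what a single region can show.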
